A study of Mus musculus with 2 samples.

Results

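The genes described here carry out ureagenesis and the breakdown of amino acids in mouse liver. They were chosen by symbol: a list of 44 genes was set against the annotation of the array, and every probe set with exactly 1 gene symbol from that list was used. Of the 44 genes, 41 were named on the array, by 65 of its 45101 probe sets, and all 41 passed the filter on signal, as did 9732 of the 18194 genes with a probe set of 1 symbol. Mut, the mitochondrial methylmalonyl-CoA mutase, appears under its current symbol Mmut. Gls2, Sds and Sdsl, for the liver glutaminase and the serine dehydratases, were not analysed here because no probe set carried their symbol alone.

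The study asked what a diet with diosgenin, a steroidal sapogenin of yams and fenugreek, does to liver transcripts. ICR mice, an outbred stock, ate the basal diet CRF-1, plain or with 500 ppm diosgenin, for 4 weeks from 9 weeks of age, and livers were taken at 13 weeks. Liver RNA of 3 mice was pooled for each diet and read on 1 Affymetrix array, so there were 2 arrays, the control array and the diosgenin array, and no replicates. The labels put 3 mice in a cage and do not say whether each diet was a single cage, and diet and array cannot be told apart. No test was possible. A gene called higher or lower is so in the pool from the diosgenin diet.

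Amino acids in excess of what protein synthesis needs are broken down mainly in hepatocytes. Aminotransferases move their nitrogen to glutamate and aspartate, the urea cycle turns ammonia and the nitrogen of aspartate into urea, and glutamine synthetase captures the ammonia that escapes the cycle. The carbon skeletons enter pathways of their own, most of them in mitochondria, that end in pyruvate, acetyl-CoA or intermediates of the citric acid cycle. Glucagon, glucocorticoids and a protein-rich diet are known to raise many of these enzymes.

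Most of these genes read nearly the same on both arrays, and Got1 and Csad stood at the ends of the range. Got1, the cytosolic aspartate aminotransferase, was 1.67-fold higher. Csad, the cysteine sulfinate decarboxylase of taurine synthesis, was 1.52-fold lower. Agxt and Pccb were 1.22-fold and 1.26-fold higher, and the other 37 genes were within 1.2-fold.

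The sequences upstream of Got1 and Csad are shown because these are the genes with the largest differences. Each is the 250 bases before an annotated start, from RefSeq on GRCm38.p6, written 5′ to 3′ along the gene. Csad has 2 annotated starts in that table, and the array values do not tell which was used. Capitals mark matches, on either strand, to the TATA box TATAAA, the CCAAT box, the GC box GGGCGG, the E-box CACGTG, the core TGACG of the cAMP response element and the element AGGTCA that many nuclear receptors bind.
Got1, chr19:43524606-43524855, minus strand: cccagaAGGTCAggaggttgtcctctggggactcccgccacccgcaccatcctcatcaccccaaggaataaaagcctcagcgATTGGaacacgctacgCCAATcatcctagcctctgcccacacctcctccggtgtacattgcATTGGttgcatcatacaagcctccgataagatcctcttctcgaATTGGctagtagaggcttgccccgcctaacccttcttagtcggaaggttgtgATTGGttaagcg
Csad, upstream start, chr15:102205053-102205302, minus strand: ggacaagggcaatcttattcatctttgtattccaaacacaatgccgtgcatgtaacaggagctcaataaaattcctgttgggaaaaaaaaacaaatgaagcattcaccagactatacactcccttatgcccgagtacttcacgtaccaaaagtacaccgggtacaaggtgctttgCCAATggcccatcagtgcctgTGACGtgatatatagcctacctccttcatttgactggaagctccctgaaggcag
Csad, downstream start, chr15:102189044-102189293, minus strand: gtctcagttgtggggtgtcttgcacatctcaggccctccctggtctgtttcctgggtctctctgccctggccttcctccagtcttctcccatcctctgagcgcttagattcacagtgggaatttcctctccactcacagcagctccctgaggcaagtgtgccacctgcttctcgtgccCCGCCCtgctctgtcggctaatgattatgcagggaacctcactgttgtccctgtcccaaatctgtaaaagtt

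The Got1 window held 5 matches to CCAAT and 1 to AGGTCA, and its GC content was 54.4%. Across all 32851 windows of the same length, 33.8% held CCAAT and 14% held AGGTCA. Windows with 5 or more CCAAT matches, a number counted after the Got1 window was seen, made up 0.213% of all. The window before the upstream start of Csad held 1 CCAAT and 1 TGACG, and TGACG was found in 17.8% of all windows. The window before its downstream start held 1 GGGCGG, read from the other strand, a motif present in 32.7% of all windows. Neither gene had TATAAA or CACGTG in these windows, motifs held by 12.4% and 6.02% of all. Windows were found for 33 of the 41 genes, 37 windows in all, of which 18 held CCAAT and 11 held AGGTCA. These shares were 48.6% and 29.7%, against 33.8% and 14% of all windows. The GC box was in 37.8%, the TATA box in 13.5% and the E-box in 10.8%, against 32.7%, 12.4% and 6.02%. The core of the cAMP response element was in 13.5%, less than the 17.8% of all windows. Whether any of these shares differs from that of all windows was not tested. A match describes letters only, and binding was not measured.

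The values are array intensities on a linear scale. Each gene was read by its brightest probe set on average, signals under 10.7 were set to that floor, and a gene was kept where the mean of both arrays reached 28.4. The 41 genes passed this filter on each array alone, with signals between 89.7 and 7296. Sorted by mean signal into 4 equal classes, 39 of them fell among the 2433 brightest genes, where differences between the arrays were smallest. Mccc2 fell in the next class and Ass1 in the class below that.

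Of the 41 genes, 26 were higher by any amount and 15 lower, 63.4% higher, while 49% of all genes were higher and 51% lower, and of the brightest genes 49.5% and 50.5%. The median log2 ratio of the 41 genes was 0.05, with −0.0053 over all genes and −0.0030 over the brightest. At least 1.2-fold higher were 3 of the 41, against 14.5% of all genes and 7.69% of the brightest. At least 1.2-fold lower was 1 gene, against 15.3% and 7.93%. Past 1.5-fold there was 1 gene in each direction, where the share of all genes was 2.84% higher and 3.61% lower, and that of the brightest genes 1.11% and 1.15%. With counts this small and no replicate, whether these shares differ from those of genes of like signal was not tested. Within 1.1-fold were 24 of the 41 genes, 58.5%, and 59.5% of the brightest genes.

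**Figure D1:**
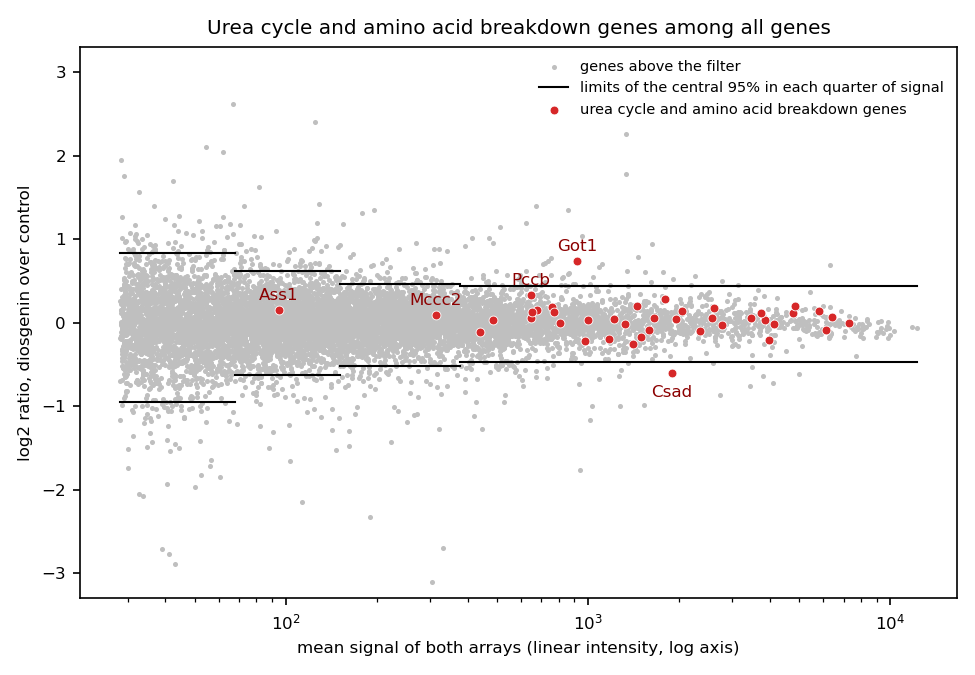
Each grey point is a gene above the filter, with its mean signal on a log axis and its log2 ratio, diosgenin over control, and red points are the 41 urea cycle and amino acid breakdown genes. Black lines mark the central 95% of genes in each of 4 classes of signal, and Got1 and Csad are the red points outside them.

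The only measure of repeatability inside the arrays comes from genes with several probe sets. The pooled standard deviation of log2 ratios within a gene was 0.28 over 4079 genes, of 0.16 over 691 genes with several probe sets among the brightest, and of 0.16 over the 15 genes of this group with several probe sets above the filter. In 8 of these 15 all probe sets had the same sign, and in 7 they did not. Of the 41 genes, 13 differed by at least the standard deviation of bright genes, 7 higher and 6 lower, as did 33.0% of the brightest genes. The other 28 differed by less than this spread, which holds no variation between mice.

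**Figure D2:**
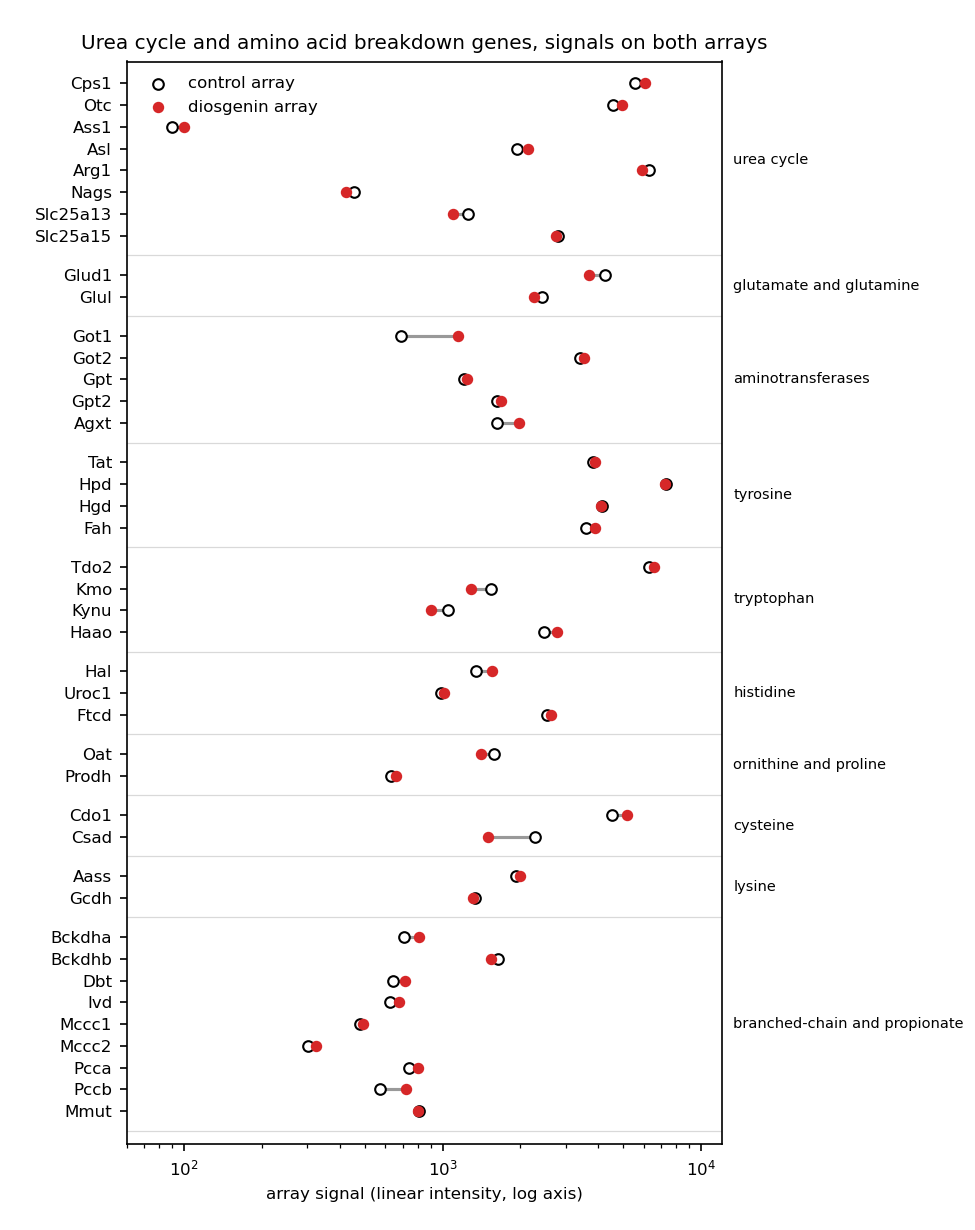
Open circles give the signal of each gene with the control diet and red circles that with diosgenin, as linear intensity on a log axis, grouped by pathway. Most pairs nearly coincide, and the longest lines join 688 and 1152 for Got1 and 2287 and 1501 for Csad.

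The urea cycle genes split evenly, with 4 higher, 4 lower and none of the 8 at least 1.2-fold apart. Of the 2433 brightest genes 2053 were within 1.2-fold too. Cps1, carbamoyl phosphate synthetase of the mitochondrial matrix, read 5532 with the control diet and 6085 with diosgenin, a log2 ratio of 0.14. Otc, which joins carbamoyl phosphate to ornithine, read 4572 and 4962 on its brightest probe set. Its next probe set agreed at a log2 ratio of 0.13, while the dimmest, at 159.7 and 140.0, gave −0.19. Asl, which cleaves argininosuccinate, read 1941 and 2140, also a log2 ratio of 0.14.

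Ass1, which makes argininosuccinate, was read by a probe set at only 89.7 and 99.9, a log2 ratio of 0.16. A far brighter probe set carries the symbols of both Ass1 and Gm5424 and therefore fell outside the rule. It read 5370 and 5434, a log2 ratio of 0.017. On that probe set the arrays were level.

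The last enzyme of the cycle and its supporting genes leaned the other way. Arg1, the arginase that releases urea, read 6308 and 5935, a log2 ratio of −0.09. Nags, which makes the activator of Cps1, read 455 and 422, a log2 ratio of −0.11. Slc25a13, the citrin carrier that brings aspartate out of mitochondria, read 1256 and 1096 and was 1.15-fold lower. Slc25a15, the ornithine carrier, read 2797 and 2746, and its other probe set gave 373 and 383, so its direction was not settled. Except for Slc25a13, these differences were under the spread of 0.16 between probe sets of bright genes.

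Both genes of glutamate and glutamine turnover were slightly lower. Glud1, the dehydrogenase that frees ammonia from glutamate, read 4239 and 3684, and 3708 and 3368 on its other probe set, log2 ratios of −0.20 and −0.14. Glul, the glutamine synthetase of hepatocytes around the central vein, read 2423 and 2259, a log2 ratio of −0.10. Its other probe set read 1008 and 758, a log2 ratio of −0.41. The probe sets of each gene went the same way, while those of Glul differed in size.

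On their brightest probe sets the 5 genes listed as aminotransferases, Got1, Got2, Gpt, Gpt2 and Agxt, had log2 ratios between 0.04 and 0.74 with a median of 0.06. The direction was not common to aminotransferases at large, since Oat, the ornithine aminotransferase, had a log2 ratio of −0.17. Got1 had the largest ratio. Got1 read 688 with the control diet and 1152 with diosgenin, a log2 ratio of 0.74. It was read by a single probe set. Among the brightest genes 1.19% were as far apart in either direction, and the central 95% of these genes reached from −0.47 to 0.44, so Got1 lay outside it. Of the 41 genes 2 lay outside the central 95% of their own class of signal. Of all genes 5.01% did, a share set by that definition.

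Got2, the mitochondrial form of the same enzyme, did not show a difference of that size. Its brightest probe set read 3388 and 3532, a log2 ratio of 0.06, and the next 1195 and 1385, 0.21. Agxt, which moves the amino group of alanine to glyoxylate in peroxisomes, read 1621 and 1980, a log2 ratio of 0.29, as far apart as 12.9% of the brightest genes. The cytosolic and mitochondrial aspartate aminotransferases therefore differed by 1.67-fold and 1.04-fold on their brightest probe sets.

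The alanine aminotransferases were near level. Gpt, the cytosolic form, read 1207 and 1240 on a probe set that can bind several transcripts. Its other probe set, at 133 and 92.6, gave −0.52, so the direction for Gpt depended on the probe set. Gpt2, the mitochondrial form, had 4 probe sets with log2 ratios between −0.0067 and 0.19.

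**Figure D3:**
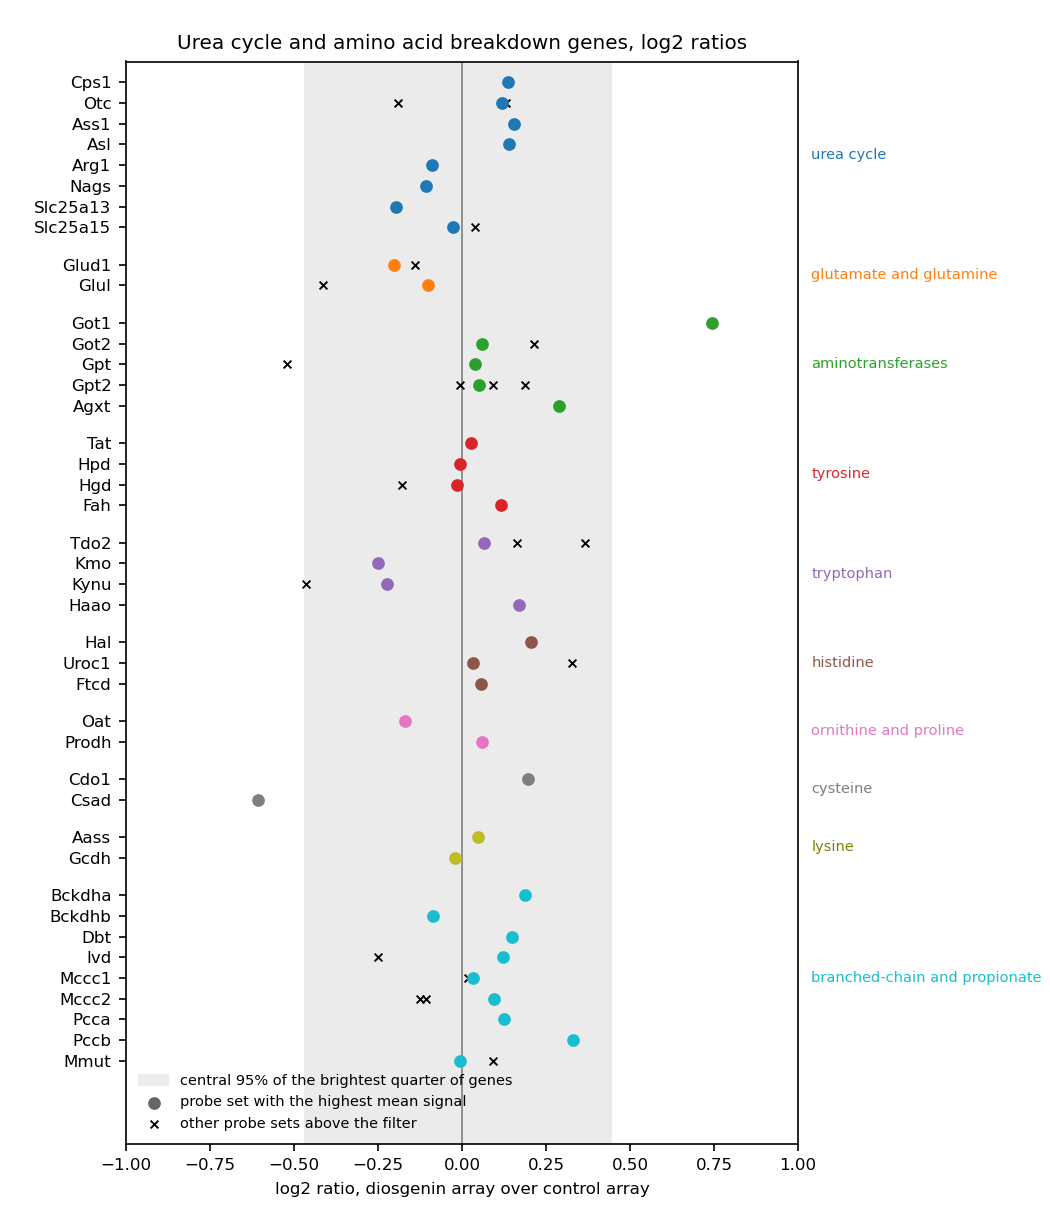
Coloured points give the log2 ratio, diosgenin over control, for the brightest probe set of each gene, grouped by pathway, and crosses those of its other probe sets above the filter. The shaded band is the central 95% of the brightest genes, from −0.47 to 0.44. The coloured points of Got1 at 0.74 and Csad at −0.61 lie outside it, as does a dim probe set of Gpt at −0.52. For genes with signals like that of this Gpt probe set, the central 95% was wider, from −0.63 to 0.62, and held it.

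Cysteine breakdown gave the lowest ratio of the group. Cdo1, the dioxygenase that turns cysteine into cysteine sulfinate, read 4507 and 5166 and was 1.15-fold higher. Csad, which decarboxylates cysteine sulfinate on the way to taurine, the amino acid that mouse liver joins to bile acids, read 2287 and 1501, a log2 ratio of −0.61. Csad was read by a single probe set, whose suffix _a_at marks transcripts of the same gene, and 2.14% of the brightest genes were as far apart. Cysteine sulfinate is also a substrate of aspartate aminotransferases. The successive steps Cdo1 and Csad thus read in opposite directions. Without a second probe set for either gene, neither value had a repeat within the arrays.

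Genes of tyrosine breakdown were level on their brightest probe sets. Tat, the tyrosine aminotransferase and a textbook target of glucocorticoids, read 3822 and 3897, a log2 ratio of 0.03. Hpd, which makes homogentisate, read 7296 and 7264. Hgd, which opens its ring, read 4142 and 4099, and Fah, which cleaves fumarylacetoacetate, 3586 and 3883. On the brightest probe sets the log2 ratios of these 4 genes lay between −0.015 and 0.11, all under the spread between probe sets of bright genes. The other Hgd probe set, dim at 83.8 and 74.0, gave −0.18.

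Genes of tryptophan breakdown fell on both sides. Tdo2, the dioxygenase that opens the pathway, read 6271 and 6560, and its 3 probe sets gave log2 ratios of 0.06, 0.16 and 0.37. Kmo, which hydroxylates kynurenine, read 1534 and 1290 and was 1.19-fold lower. Kynu, the kynureninase, read 1052 and 901, 1.17-fold lower. Its dim probe set, at 37.6 and 27.3, gave −0.46 and passed the filter only through the control array. Haao, which makes the precursor of quinolinate, read 2462 and 2771, 1.13-fold higher.

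Of the other genes of this route, Afmid, the formamidase that follows Tdo2, read 685 and 939 and was 1.37-fold higher. Its other probe sets above the filter gave log2 ratios of 0.28 and 0.15. Aadat, Kyat1 and Kyat3, which convert kynurenine to kynurenic acid, had log2 ratios of −0.22, −0.31 and −0.20, where the Kyat1 probe set can bind several transcripts. The other Kyat1 probe sets above the filter gave −0.10 and −0.095.

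The 3 genes of histidine breakdown were higher by small amounts. Hal, the histidine ammonia-lyase, read 1352 and 1558, 1.15-fold higher. Uroc1, the urocanase, read 987 and 1010, a log2 ratio of 0.03, and 0.33 on a dimmer probe set at 200.1 and 251. Ftcd, which passes the formimino group to tetrahydrofolate, read 2529 and 2628.

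Oat and Prodh, which feed ornithine and proline into glutamate, differed in sign. Oat read 1580 and 1406 and was 1.12-fold lower. Prodh, the proline dehydrogenase, read 632 and 659, a log2 ratio of 0.06. For lysine, Aass, the bifunctional enzyme that starts its breakdown, read 1927 and 1992, and Gcdh, the glutaryl-CoA dehydrogenase, 1329 and 1311. The lysine genes were level.

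Of the 9 genes of branched-chain amino acid and propionate breakdown, 7 were higher and 2 lower, and their median log2 ratio was 0.12. Pccb, the β subunit of propionyl-CoA carboxylase, read 573 and 719, a log2 ratio of 0.33, the largest here. Its partner subunit Pcca read 738 and 806, a log2 ratio of 0.13. Mmut, the mutase that takes the pathway to succinyl-CoA, read 807 and 804, and its other probe set above the filter 674 and 719.

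The branched-chain keto acid dehydrogenase showed no common direction. Its E1 subunits Bckdha and Bckdhb read 712 and 812 and 1638 and 1543, log2 ratios of 0.19 and −0.09. Dbt, its E2 subunit, read 645 and 715, a log2 ratio of 0.15. Ivd, the leucine pathway's isovaleryl-CoA dehydrogenase, read 625 and 680 on its brighter probe set and 310 and 261 on the dimmer, with log2 ratios of 0.12 and −0.25. For Mccc1, a subunit of methylcrotonyl-CoA carboxylase, the brightest probe set read 480 and 491. For Mccc2, its partner, it read 303 and 324, and both dimmer Mccc2 probe sets were lower. With the median of all probe sets of each gene, the median log2 ratio of these 9 genes was 0.026.

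Other enzymes of amino acid breakdown gave a like picture. Of 63 listed genes 49 were above the filter, 31 higher and 18 lower. Their median log2 ratio was 0.03. At least 1.2-fold higher were 3 and lower 4, and none passed 1.5-fold. Among all genes 14.5% were at least 1.2-fold higher and 15.3% lower, and among the brightest 7.69% and 7.93%. By any amount 49% of all genes were higher and 51% lower. Dhtkd1, a dehydrogenase of lysine breakdown, was 1.41-fold higher at 387 and 546. With Afmid it lay outside the central 95% of genes of like signal, as did 5.01% of all genes.

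Next to the urea cycle, 4 genes were higher and 5 lower. Gatm, which opens creatine synthesis from arginine, was 1.23-fold lower at 98.5 and 79.8. On their brightest probe sets the desuccinylase Sirt5 and ornithine decarboxylase Odc1 had log2 ratios of −0.25 and −0.24, and Agmat one of 0.24. The other Sirt5 probe set above the filter gave 0.08, and the 2 others of Odc1 had a median of 0.013. Among 9 aromatic genes 6 were higher and 3 lower, those given above.

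In the histidine and proline list, 4 were higher and 1 lower. Prodh2, which acts on hydroxyproline, was 1.25-fold lower at 820 and 654, while Aldh4a1, Amdhd1 and Hoga1 had log2 ratios of 0.25, 0.19 and 0.10. In the threonine, glycine and cysteine list, 4 were higher and 3 lower. The sulfurtransferase Mpst read 166 and 139, a log2 ratio of −0.26, and sulfite oxidase Suox and the glycine decarboxylase Gldc had log2 ratios of 0.20 and 0.18. Adi1, a dioxygenase of methionine salvage, had probe sets at 0.38, 0.69 and −0.31 and is uncertain.

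In the lysine list, besides Dhtkd1, Hykk and Phykpl had log2 ratios of 0.20 and 0.12, and Pipox was level at 0.02. Aldh7a1 gave 0.0055 on its brightest probe set, while its 2 other probe sets above the filter had a median of 0.36. On their brightest probe sets the 14 other genes of branched-chain and propionate breakdown were all within 1.2-fold, as were 2053 of the 2433 brightest genes. Their median was 0.0099. Among them the hydratase Echs1 had the largest log2 ratio, 0.19, followed by Mmaa at −0.16, Hsd17b10 at −0.12 and the kinase Bckdk, which inhibits the keto acid dehydrogenase, at −0.11. The other Auh probe set above the filter gave 0.47, and the 2 others of Mmab had a median of 0.34. Those of Ppm1k and Hibch gave −0.16 and −0.13.

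Amino acid transporters went both ways. Of 14 above the filter, 7 were higher, 3 of them by at least 1.2-fold, and 7 were lower, 4 of them by at least 1.2-fold, where 14.5% of all genes were that much higher and 15.3% that much lower. Slc7a2, a carrier of arginine, lysine and ornithine, was 1.59-fold higher at 843 and 1336, and its 3 other probe sets gave log2 ratios of 0.15, 0.39 and 0.63. All 4 probe sets of Slc7a2 were higher. Slc43a1, which exports branched-chain amino acids, was 1.53-fold lower at only 74.8 and 49.0, Slc1a4, which passed the filter only through the control array, 1.44-fold lower at 39.3 and 27.2, and the aromatic amino acid carrier Slc16a10 1.27-fold lower.

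Of 11 regulators of these genes 10 were higher, against 49% of all genes, and their median log2 ratio was 0.11. Ppargc1a, a coactivator induced in liver by fasting, read only 38.7 and 70.9, 1.83-fold higher, and its other probe set gave a log2 ratio of 0.54. Cebpb, a transcription factor of the glucagon response, was 1.38-fold higher at 749 and 1030, with 0.28 on its other probe set. Creb3l3 had a log2 ratio of −0.21 and Klf15 of 0.18. The hormone receptors Gcgr and Nr3c1 were both within 1.2-fold.

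**Figure D4:**
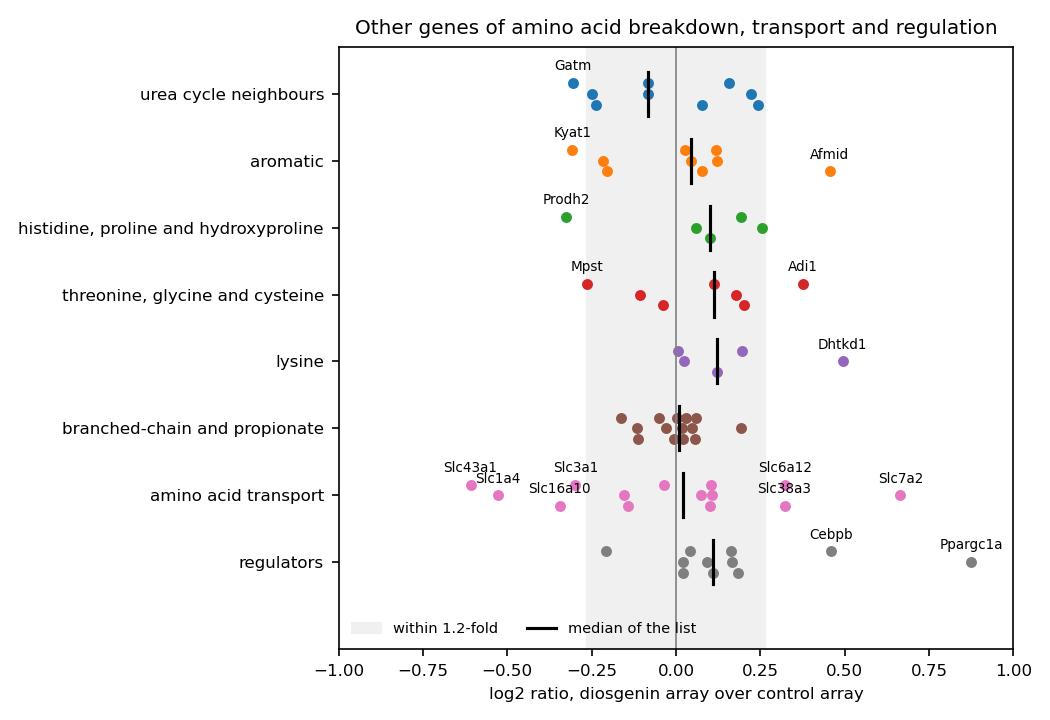
Each point is a gene above the filter from the lists of other enzymes, transporters and regulators, placed by its log2 ratio, diosgenin over control, with the list median as a black bar and the range within 1.2-fold shaded. The transporter Slc7a2 at 0.67 and the coactivator Ppargc1a at 0.88 lie farthest to the right, and Slc43a1 at −0.61 farthest to the left.

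Urea cycle enzymes are known to be highest near the portal vein, and Glul and Oat near the central vein. Of 8 other periportal genes 5 were higher and 3 lower. Their median log2 ratio was 0.04. At least 1.2-fold higher were 3 of the 8, where 14.5% of all genes were. Outside the central 95% of genes of like signal were 2, Hsd17b13 and Ctsc, as were 5.01% of all genes. Ctsc was 1.38-fold higher at 856 and 1178, with a log2 ratio of 0.10 on its other probe set. Pck1, of gluconeogenesis, was 1.23-fold higher at 3796 and 4665, and Cyp2f2 read 7563 and 7286. Of 9 pericentral genes 4 were higher and 5 lower. Their median was −0.13. Cyp2e1 read 9084 and 9106 and Cyp1a2 4158 and 3488, and Cyp7a1 had the lowest ratio at 631 and 261. Lect2 was 1.25-fold lower at 1078 and 861, and Lgr5 1.22-fold higher at only 46.0 and 56.0. Hsd17b13, the highest periportal ratio, had probe sets of opposite sign at 2.26 and −0.80.

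The tissue label was checked against marker genes. The 5 hepatocyte markers named here were bright on both arrays, Alb at 9517 and 8429 and Ttr at 9832 and 9041, and 4 of the 5 were lower, with a summed signal of 38623 with the control diet and 35437 with diosgenin. Of these Apob was 1.22-fold lower. None of the 5 named lymphocyte markers passed the filter. Of bile duct markers only Sox9 did, through the control array, at 42.0 and 26.1, while Krt19, Krt7 and Epcam were under it. Of pancreatic markers Cela1 read 1212 and 1150.1 and Cela3b 38.2 and 44.2, with Prss2 and Cpa1 under the filter. Fabp4 of fat read 149 and 130 and Adipoq was under the filter. Alas2 of erythroid cells read 1309 and 1123 and Hba-a1 was under the filter. Over the genes above the filter, endothelial markers summed to 1428 and 1047, with 3 of 6 at least 1.2-fold lower, where 15.3% of all genes were. Most of that sum's difference came from Clec4g at 745 and 464, while Pecam1, Kdr and Cdh5 were within 1.2-fold. Stellate cell markers summed to 1953 and 2398, with 3 of 5 at least 1.2-fold higher, where 14.5% of all genes were. Most of that difference came from Dcn at 940 and 1217 and Reln at 555 and 701, while Lrat and Col3a1 were within 1.2-fold. The stellate marker Col1a1, under the filter, went the other way at 31.3 and 17.2. Kupffer cell markers summed to 1361 and 1504, with Clec4f 1.29-fold higher, Marco kept by the filter only through the diosgenin array at 13.3 and 45.1, and the other 4 within 1.2-fold. Their part in the differences of Got1, Csad and the other genes was not tested. In whole liver, fewer cells of a type and less RNA per cell cannot be told apart.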

How the data were processed

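Liver RNA of 3 mice per diet was pooled before labelling, and 5 µg were used per array, per the labels' protocols. The deposited values were linear intensities, 1 per probe set. The submitters' processing notes name GCOS, software of the array's maker, and give no version. How probes were summarised into signals is not given in the sources used here, nor are detection calls. The 2% trimmed mean was 96.9 on each array, so the signals share a global scaling.

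Names came from the platform annotation, with older symbols updated through RefSeq. The floor was the 40th percentile of all signals and the filter the 60th percentile of mean signals. Every gene of the group above the filter was named, with up to 4 genes by size of ratio in each list of other enzymes, transporters and regulators. Genes of the zone and marker lists were not named by that rule. Ratios, counts and percentiles were computed with Python 3.11.15, numpy 2.4.6 and pandas 2.3.3, checked on simulated data. With 1 array per diet no p-value, error or interval exists, and the number of arrays limits the precision. Floors, filters, probe set rules, scaling and an offset of 16 were varied. The genes and lists were chosen with earlier results of these data known.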

Additional observations from a re-analysis of the deposited data

How the results depend on the processing

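No paired analysis was possible because each diet had 1 array and the labels give no replicate numbers. Leaving out a replicate was not possible for the same reason. Under 10 alternatives, 162 of 170 medians and counts and 402 of 407 values of single genes stayed within the limits set for them: the standard deviation between probe sets of a gene for single genes, that over the square root of the number of genes for medians, and 1.5 times for counts. With the median of all probe sets of a gene, 2 genes were at least 1.2-fold lower, also when only probe sets above the filter entered, and the median log2 ratio of branched-chain and propionate genes was 0.026. Without shared and alternative probe sets, which drops Csad, 0 genes were at least 1.5-fold lower and 1 lay outside the central 95%. The medians were then −0.057 for the urea cycle and 0.21 for aminotransferases, and for cysteine only Cdo1 was left, at 0.20. In that setting Gpt, Otc and Uroc1 had log2 ratios of −0.52, −0.19 and 0.33, and Gpt had −0.24 with the medians of probe sets. Got1 stayed between 0.73 and 0.75 under all 10, and Csad between −0.61 and −0.60 under the 9 that keep it. All 41 genes lay above every floor and filter tried, so those alternatives could not move their ratios. Got1 and Csad have 1 probe set each, so a median over probe sets could not move theirs. Of the 41 genes, 32 kept their sign under every alternative that gave them a value and 9 did not. Among those 9, Hpd did not turn to the other direction but went from −0.0063 to 0 after quantile normalization. Csad, Glul and Haao had a value under 9 of the 10. The median log2 ratio of all genes was −0.0053 as deposited and 0 after quantile normalization. The spread between mice is unknown, and differences of dim genes are the least certain.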
